A study of Homo sapiens with 8 samples.

Results

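The replication-dependent histone genes code for the bulk of the H1, H2A, H2B, H3 and H4 proteins that package newly copied DNA. They were chosen by symbol alone, as genes named H1-1 to H1-6 or with the stems H2AC, H2BC, H3C and H4C followed by a number, in the present or the older HIST1 to HIST4 naming. This gave 49 of the 17076 genes of the series, of which 3 code for H1, 13 for H2A, 13 for H2B, 10 for H3 and 10 for H4. RNA was sequenced from Huh7, an established line of human hepatocellular carcinoma cells, in 4 groups of 2 libraries. Cells transfected with siRNA against UPF1 (siUPF1) were compared with cells given a control siRNA (siControl). Cells transfected with a vector for overexpression of MYC-UPF1 (MYC-UPF1) were compared with cells given the control MYC vector (MYC). All groups share the cell line and transfection with a lipid reagent, and no label names a deleted gene. The time between transfection and harvest and the siRNA used for these libraries are not given in the sources used here, nor is it said that replicates came from separate cultures, so the p-values measure the spread between these libraries, which may be technical.

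UPF1 is an RNA helicase best known for nonsense-mediated decay, and it also takes part in the decay of histone mRNAs. Replication-dependent histone mRNAs are made in S phase and end, unlike other mRNAs, in a short stem-loop instead of a poly(A) tail. The stem-loop binding protein SLBP holds this end, and when DNA synthesis stops, UPF1 joins SLBP and the mRNAs are degraded. The libraries were made with an mRNA kit that captures RNA through its poly(A) tail, so the values below describe what part of the histone mRNA such a kit retained. Less histone mRNA per cell, fewer cells in S phase and a smaller polyadenylated share cannot be told apart in these libraries.

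The values are FPKM, a fragment number scaled to transcript length and to the mapped fragments of the library, so that levels can be compared between genes per unit of length. FPKM carries no read number, so the depth of each library and the counting error of each value are unknown. UPF1 itself was at 44.5 and 47.4 FPKM in siControl and at 20.7 and 21.9 FPKM in siUPF1, a log2 change of -1.07 with an adjusted p of 0.0308 in limma. UPF1 was at 45.1 and 57.4 FPKM in MYC and at 2835 and 2484 FPKM in MYC-UPF1, a log2 change of 5.68 with an adjusted p of 8.91e-09 in limma. Of the liver markers, all 9 of 9 had values, with means from 43.1 FPKM for HNF4A to 11804 FPKM for AFP. PTPRC, CD3E, CDH5, VWF and COL1A1, which mark leukocytes, endothelium and fibroblasts, had no row, and the markers of those cells with a row had means of 0.397 to 2.15 FPKM.

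The stem-loop was located in the genome first, since it defines these genes. GENCODE release 44 on GRCh37, the assembly also called hg19, has a gene model for 47 of the 49 members, 37 on chromosome 6 between 26020679 and 27861669 and 10 on chromosome 1 between 149754245 and 149858961. No model was matched for H2BC7 and H2BC8. A pattern of 16 bases was searched on the coding strand only, in the 200 bases after the stop codon: GG, 2 free bases, CTT, 1 free base, T, 1 free base, AG, 2 free bases and CC. It was present in 47 of the 47 matched members. Among 20133 such windows of protein-coding genes, 71 or 0.353% held it, and the 24 outside the list were 22 other histone genes, MESP1 and TIPARP. The stem-loop began 22 to 67 bases after the stop codon. The sequences below give the commonest form (H1-2), the forms of the most abundant H2B gene and of an H4 pair, and the form of H3C6, which no other member has. Capitals mark the 16 bases of the stem-loop and lower case its flanks, all 5′ to 3′ on the coding strand of GRCh37, with the strand after the coordinates.
H1-2, chr6:26055967-26055992, minus strand: caaaaGGCTCTTTTCAGAGCCaccac
H2BC12, chr6:27114140-27114165, minus strand: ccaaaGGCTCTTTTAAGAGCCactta
H4C8, chr6:26285354-26285379, minus strand: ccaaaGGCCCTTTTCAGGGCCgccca
H4C14, chr1:149804591-149804616, plus strand: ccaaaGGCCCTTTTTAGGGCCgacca
H3C6, chr6:26225819-26225844, plus strand: ccaaaGGCTCTTCTCAGAGCCaacca

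The form of H1-2 was shared by 29 members from the H1, H2A, H2B and H3 families. The form of H2BC12 was shared by 4 members, which were H2BC4, H2BC5, H2BC11 and H2BC12. The form of H4C8 occurred in 7 members, all of them H4 genes, and the form of H4C14 in 3, H4C12, H4C14 and H4C15. H2AC11, H2AC15, H2AC20 and H3C6 each had a form of their own. The canonical transcript of all 47 members was a single exon, and in 44 of them it ended within 10 bases of the stem-loop, at a median of 5 bases past it. H2BC21 was annotated to run 1729 bases past its stem-loop.

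Some well expressed members, picked out after their values had been seen, also carry the usual signal for polyadenylation, AATAAA, just past the stem-loop. These 4 are H1-2, H2BC5, H2AC18 and H2AC19, with the signal 12 to 13 bases after the last base of the stem-loop. H2AC18 has the same letters as H2AC19 here. Capitals mark the signal and lower case the end of the stem-loop and the bases between, again 5′ to 3′ on GRCh37.
H1-2, chr6:26055954-26055983, minus strand: cttttcagagccaccactgatctcAATAAA
H2BC5, chr6:26158819-26158848, plus strand: cttttaagagccacgcatgttttcAATAAA
H2AC19, chr1:149823146-149823175, plus strand: ttttcagagccacccacgttttcaAATAAA
Of the 47 matched members, 8.51% had AATAAA within 50 bases of the stem-loop, beside 4.71% of windows of the same length over all protein-coding genes, so the share is near the background. The mean FPKM of these 4 genes was 24.9 to 90.04 over the 8 libraries, and all were among the 6 most abundant members. The 12 other members with a GENCODE transcript that was spliced or ran at least 100 bases past the stem-loop had means of 0.512 to 40.7 FPKM and a median of 3.56 FPKM. The 31 members with neither feature had a median of 0.928 FPKM, yet H2BC12, at 200.7 FPKM the most abundant of all members, was among them. RefSeq lists 3 transcripts for H2BC12 where GENCODE has 1, so the class depends on the annotation. The levels by class are a description of genes, not of replicates.

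**Figure D1:**
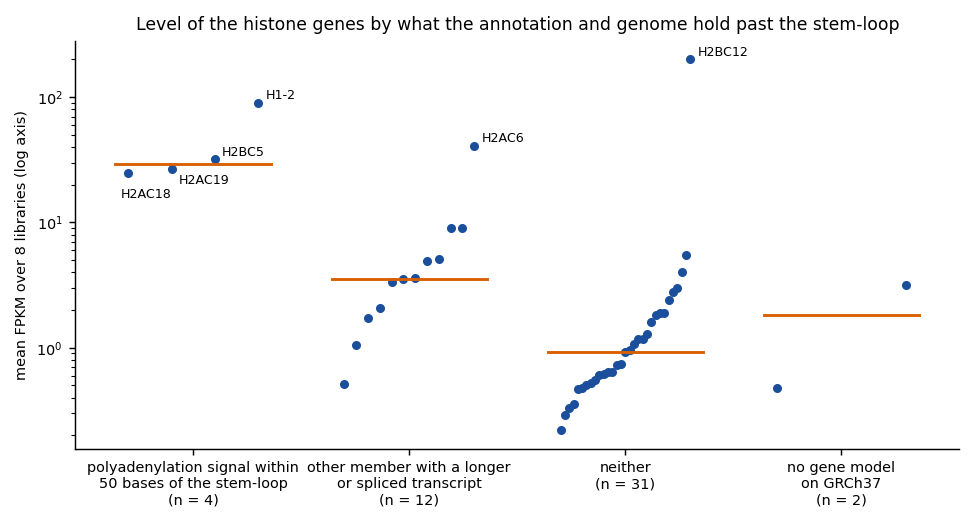
Mean FPKM over the 8 libraries (log axis) of the 49 histone genes, grouped by what the reference holds past the stem-loop; each point is a gene and each line the median of its class. The 4 genes with a polyadenylation signal within 50 bases lie between 24.9 and 90.04 FPKM, while H2BC12 at 200.7 FPKM stands alone above the class with neither feature.

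The histone genes were expressed over a wide range, and a few of them made up most of the signal. H2BC12 alone had a mean above 100 FPKM. The next 5 were H1-2 at 90.04, H2AC6 at 40.7, H2BC5 at 32.0, H2AC19 at 26.5 and H2AC18 at 24.9 FPKM. A further 24 members had means of 1 to 10 FPKM and 19, or 38.8%, had means below 1 FPKM, beside 29.2% of all genes. The 6 most abundant members held 78.5% to 84.3% of the summed FPKM of the 49 in each library. By family, H2B genes held 51.8% of the members' summed mean, H2A genes 22.0%, H1 genes 18.1%, H4 genes 5.33% and H3 genes 2.77%. A nucleosome takes the core histones in equal number, while the summed mean FPKM of the members ran from 13.9 for H3 to 259.8 for H2B. These sums hold only the part of each mRNA that the kit retained, and H2BC12 alone gave 200.7 FPKM of the H2B sum. They also leave out histone genes outside the 49, such as H3-3B at 118.5 and H2AZ1 at 276.3 FPKM. They are therefore no measure of the balance of core histones. All 49 members together took 0.102% to 0.135% of the summed FPKM of a library.

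**Figure D2:**
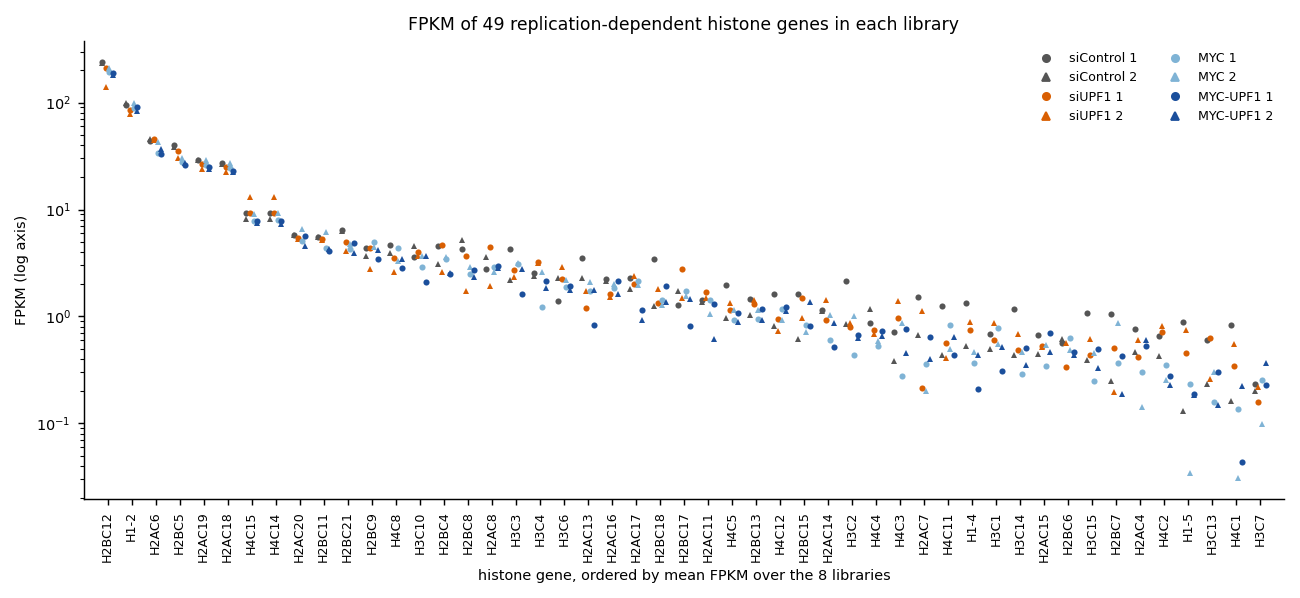
FPKM (log axis) of the 49 histone genes in each of the 8 libraries, ordered by the mean; colour gives the group and marker shape the replicate. Levels fall from 200.7 FPKM for H2BC12 to 0.220 FPKM for H3C7, and below 1 FPKM the 8 libraries spread widely for the same gene.

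Some members are copies that cannot be told apart by their reads. Over the annotated transcripts, H2AC18 and H2AC19 were identical in 534 bases, H4C14 and H4C15 in 396 bases and H3C14 and H3C15 in 518 bases, each with 0 mismatches. Their values ran in parallel, with a ratio of H2AC19 to H2AC18 between 1.06 and 1.08 in every library. Each of these pairs is best read as 1 measurement, and the share of each copy is uncertain. H4C11 and H4C12 differed at 4 of 387 bases.

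Within siControl, replicate 1 stood apart for the weakly expressed members. Of the 19 members with a mean below 1 FPKM, 17 were higher in siControl replicate 1 than in replicate 2, with a median ratio of 2.25. For all genes with a mean below 1 FPKM the median ratio was 1.02 and 51.7% were higher in replicate 1. The summed FPKM of these 19 members was 18.2 in siControl replicate 1 and 9.42 in replicate 2, beside 7.51 to 13.4 in the other 6 libraries. The linker histone gene H1-5, for example, was at 0.889 FPKM in siControl replicate 1 and 0.130 FPKM in replicate 2. Members with a mean of 1 FPKM or more had a median ratio of 1.05 between the same libraries, beside 0.957 over all genes. Among members with means of 1 to 3 FPKM the ratio ran from 0.615 for H3C6 to 2.72 for H2BC18. Of all 49 members, 40 were higher in siControl replicate 1, beside 33.6% of all genes. The part of this library in the results was measured by leaving it out.

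**Figure D3:**
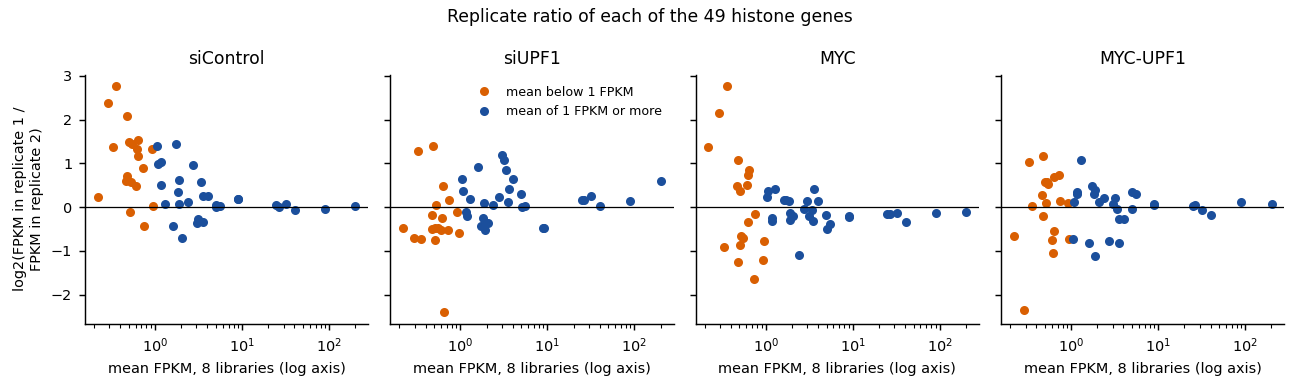
Log2 ratio of FPKM in replicate 1 to replicate 2 for each of the 49 histone genes (vertical axis), against the gene's mean FPKM over the 8 libraries (log axis), in each group. In siControl 17 of the 19 members with a mean below 1 FPKM (orange) lie above 0, while members with higher means (blue) lie close to 0 from about 10 FPKM upwards.

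In UPF1-depleted cells the abundant H2B gene H2BC12, the linker histone gene H1-2 and 5 further members were lower than in siControl, and 2 weakly expressed members were higher. All 49 members had values above 0 in every library, and 45 had a mean of at least 0.5 FPKM over the 4 libraries and were tested on log2(FPKM + 1). This scale understates the change of genes with low FPKM. At an unadjusted limma p of 0.05, 7 members were lower, where 5.51% of all 13535 genes tested were lower, and 2 were higher, where 16% of all genes were higher. In either direction 9 of 45 members, or 20%, passed, beside 21.5% of all genes. After Benjamini-Hochberg adjustment over all genes, limma called 0 members at 0.05, with a smallest adjusted p of 0.123, while 0.0369% of all genes passed. The smallest two-sided p of an exact permutation test is 0.333 in this design, and the calls therefore depend on how limma pools variance over genes.

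The direction was the same in most of the abundant members. The log2 change was below 0 in 30 of 45 tested members, beside 39.1% of all genes, and above 0 in 15, beside 60.9% of all genes. Both siUPF1 libraries lay below both siControl libraries in 14 members, beside 18.5% of all genes, and above them in 6 members, beside 37.5% of all genes. The median log2 change was -0.096 over the tested members and 0.057 over all genes. Over the 12 most abundant members it was -0.17, with 9 of 12 below 0, 3 lower and 0 higher at the unadjusted p. The copies H2AC18 and H2AC19, and the copies H4C14 and H4C15, are among these 12, although each pair is best read as 1 measurement. Without siUPF1 replicate 2 the median of these 12 was -0.091, with 8 of 12 below 0 and 1 lower, and without siUPF1 replicate 1 it was -0.27. By family the medians were -0.050 for H1, -0.090 for H2A, -0.15 for H2B, -0.11 for H3 and -0.11 for H4.

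The median over all tested members depended on siControl replicate 1. Without that library the median was 0.037 over the members and 0.037 over all genes, with 5 members lower, beside 3.65% of all genes, and 3 higher, beside 6.95%. The 12 most abundant members kept a median of -0.12 without it, with 10 of 12 below 0, whereas the 18 members of the middle range moved from -0.065 to 0.14 and the 15 tested members with a mean below 1 FPKM from -0.096 to 0.073. With a library left out, 1 group is a single library that is assumed to vary like the other group, whose 2 libraries alone give the spread. Without siControl replicate 2 there were 15 members lower, beside 2.7% of all genes, and 2 higher, beside 9.86%. Without siUPF1 replicate 1 there were 17 lower, beside 16.4% of all genes, and 5 higher, beside 27.2%. Without siUPF1 replicate 2 there were 8 lower, beside 5.28% of all genes, and 5 higher, beside 16.3%.

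Histone genes are short and rich in G and C, and GC content moved with the depletion result. The median GC content of the members' transcripts was 58.3%, beside 48.3% over all genes, and their median length was 487 bases, beside 2871 bases. Across 12844 genes of these same 4 libraries, the log2 change after depletion correlated with GC content at a Spearman rho of 0.55, which is a description across genes that are not independent replicates. Once the dependence on GC content and length was taken out of each library, the members' median became -0.21, beside -0.0014 over all genes. Relative to the median of all genes, the members' median was -0.15 before and -0.21 after this step. Of 44 members tested that way, 10 were lower, beside 11.4% of all genes, and 1 was higher, beside 11.1%. Under quantile normalization the split was also 10 lower and 1 higher, while that of all genes went from 746 lower and 2162 higher to 1408 lower and 1417 higher.

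**Figure D4:**
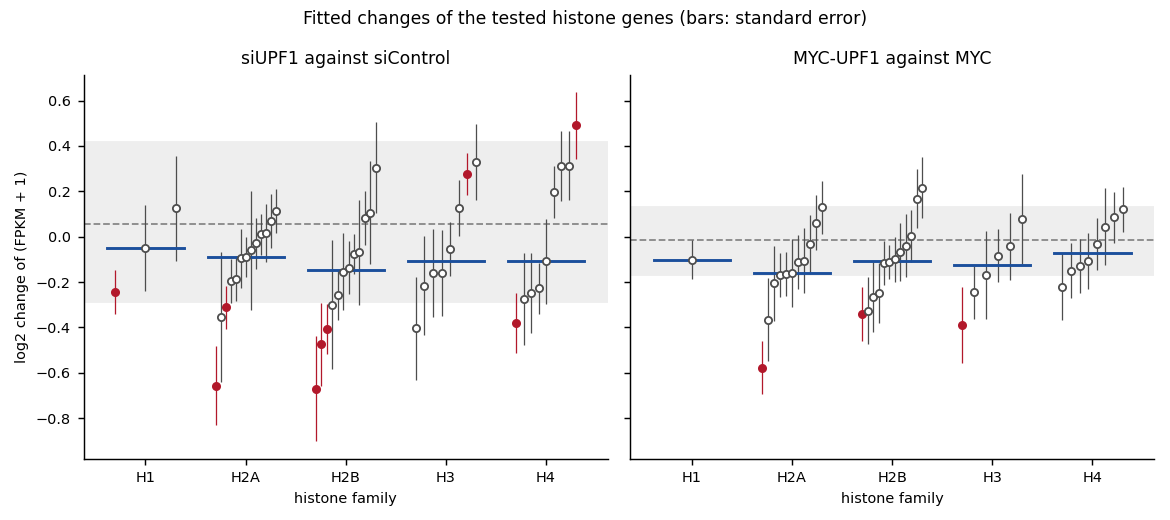
Fitted log2 change of (FPKM + 1) of each tested histone gene by family, with its standard error, for siUPF1 against siControl (left) and MYC-UPF1 against MYC (right); filled red points passed an unadjusted limma p of 0.05, blue lines are family medians, the dashed line is the median of all genes and the grey band their 5th to 95th percentile. Of the red points, 7 lie below 0 and 2 above on the left, and all 3 lie below 0 on the right.

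H1-2 codes for a linker histone, which binds the DNA between nucleosomes. Its FPKM was 95.4 and 98.1 in siControl and 85.8 and 77.6 in siUPF1, so the groups did not overlap. It fell by 0.24 on the log2 scale (SE 0.0962, limma adjusted p = 0.213). The call was lost without either siControl library, without siUPF1 replicate 2 (log2 change -0.17) and with the replicate number as a block. The other linker histone genes, H1-4 and H1-5, had means below 1 FPKM and log2 changes of -0.050 and 0.12. Both turned direction depending on which library was left out, ranging from -0.35 to 0.25 for H1-4 and from -0.25 to 0.49 for H1-5.

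Among the H2B genes, which code for the histone that pairs with H2A, 3 of 12 tested members were lower and 0 higher. Over all genes 5.51% were lower and 16% higher. H2BC12 was at 242 and 236 FPKM in siControl and at 212 and 140 FPKM in siUPF1, the lowest of all 8 libraries being siUPF1 replicate 2. It fell by 0.47 (SE 0.183, limma adjusted p = 0.208), and without siUPF1 replicate 2 the log2 change was -0.18 and the call was lost, as it was with no FPKM minimum. H2BC21, whose annotated transcript runs far past the stem-loop, was at 6.44 and 6.26 FPKM in siControl and at 5.02 and 4.10 FPKM in siUPF1. It fell by 0.41 (SE 0.11, limma adjusted p = 0.127), and this call held in every alternative run, with a log2 change of -0.29 to -0.53 when a library was left out.

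H2BC8 was at 4.26 and 5.14 FPKM in siControl and at 3.65 and 1.74 FPKM in siUPF1. It fell by 0.67 (SE 0.231, limma adjusted p = 0.176), and the size rested on siUPF1 replicate 2, since the log2 change was -0.29 without it and -1.05 without siUPF1 replicate 1. The call was lost with no FPKM minimum. H2BC5, with a polyadenylation signal past its stem-loop, was at 40.2 and 38.2 FPKM in siControl and at 35.5 and 29.98 FPKM in siUPF1, a log2 change of -0.26 that missed the unadjusted threshold (limma adjusted p = 0.236). Of the 4 members with the loop form of H2BC12, 1 was lower, beside 5.51% of all genes, and all 4 had a log2 change below 0, beside 39.1%.

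Among the H2A genes, 2 of 13 tested members were lower, beside 5.51% of all genes, and 0 higher, beside 16%. H2AC13 was at 3.54 and 2.30 FPKM in siControl and at 1.21 and 1.73 FPKM in siUPF1, with no overlap of the groups. It fell by 0.66 (SE 0.174, limma adjusted p = 0.123) and passed the unadjusted threshold in every alternative run, with a log2 change of -0.43 without siControl replicate 1. H2AC16 was at 2.25 and 2.13 FPKM in siControl and at 1.62 and 1.53 FPKM in siUPF1. It fell by 0.31 (SE 0.0949, limma adjusted p = 0.148), and missed the unadjusted threshold without siControl replicate 1 or without replicate 2. H2AC6, the most abundant H2A gene, was at 43.6 and 45.8 FPKM in siControl and at 45.5 and 44.5 FPKM in siUPF1, where the groups overlapped (log2 change 0.010, SE 0.0896). H2AC19 and its copy H2AC18 had log2 changes of -0.19 and -0.19, with both siUPF1 libraries below both siControl libraries, and missed the unadjusted threshold (limma adjusted p = 0.287 and adjusted p = 0.313).

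Among the 8 H3 and 9 H4 genes tested, 2 were higher, beside 16% of all genes, and 1 lower, beside 5.51%. H3C4 was at 2.56 and 2.37 FPKM in siControl and at 3.24 and 3.15 FPKM in siUPF1, a rise of 0.28 (SE 0.0937, limma adjusted p = 0.173). The call of H3C4 was lost without either siControl library, with quantile normalization, with all 8 libraries in a single fit and with the GC trend removed, where the log2 change was 0.15. H4C3 was at 0.713 and 0.386 FPKM in siControl and at 0.961 and 1.39 FPKM in siUPF1, a rise of 0.49 (SE 0.148, limma adjusted p = 0.147) at a level below 1 FPKM in siControl. Without siControl replicate 2 the log2 change of H4C3 was 0.34 and the call was lost.

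H4C8, which GENCODE annotates with transcripts subject to nonsense-mediated decay, was at 4.64 and 3.92 FPKM in siControl and at 3.51 and 2.63 FPKM in siUPF1. It fell by 0.38 (SE 0.134, limma adjusted p = 0.181), with a log2 change of -0.22 without siUPF1 replicate 2 and a lost call without siControl replicate 1 and with no FPKM minimum. The copies H4C14 and H4C15 carry the same annotation. H4C14 was at 9.25 and 8.18 FPKM in siControl and at 9.34 and 13.1 FPKM in siUPF1, a log2 change of 0.31 that missed the unadjusted threshold (SE 0.154, limma adjusted p = 0.284) and was 0.092 without siUPF1 replicate 2. In all, 6 members have such a transcript, H2AC6, H2BC4, H2BC15, H4C8, H4C14 and H4C15. Of these 1 was lower and 0 higher, beside 5.51% and 16% of all genes, with a median log2 change of 0.058 beside 0.057 over all genes.

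**Figure D5:**
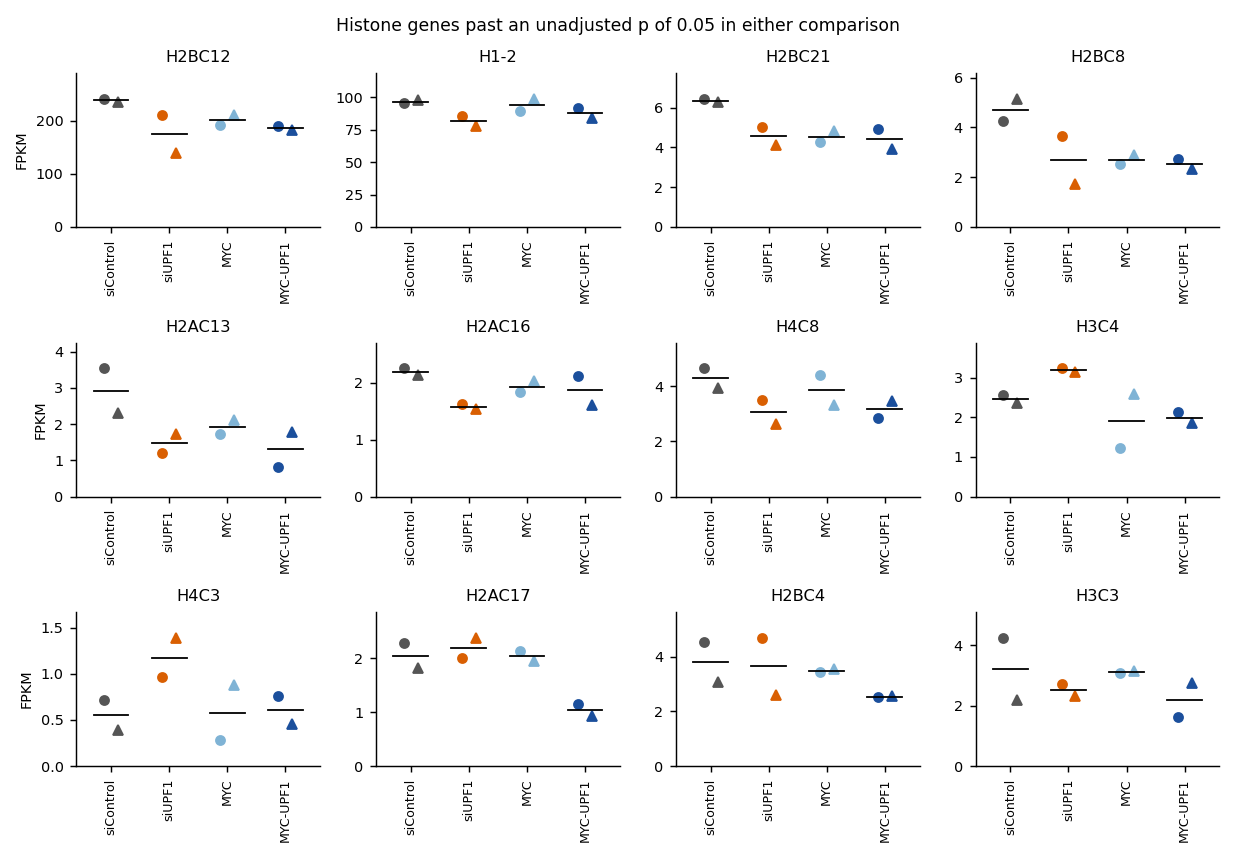
FPKM (linear axes from 0) of the 12 histone genes that passed an unadjusted limma p of 0.05 in either comparison, in each of the 8 libraries; circles are replicate 1, triangles replicate 2 and lines the group means. H2BC12 falls from a mean of 239.0 FPKM in siControl to 175.6 FPKM in siUPF1 with its siUPF1 libraries far apart, and H2AC17 falls from 2.04 FPKM in MYC to 1.04 FPKM in MYC-UPF1.

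In cells overexpressing MYC-UPF1, histone genes were again more often lower than higher, with small changes. Of the members, 38 had a mean of at least 0.5 FPKM over the MYC and MYC-UPF1 libraries and were tested. At an unadjusted limma p of 0.05, 3 were lower, where 0.807% of all 13251 genes were lower, and 0 were higher, where 0.619% of all genes were higher, so 3 of 38 passed in either direction beside 1.43% of all genes. After adjustment limma called 0 members, with a smallest adjusted p of 0.638, and 0.00755% of all genes. The log2 change was below 0 in 29 of 38 members, beside 56.9% of all genes, and above 0 in 9, beside 43.1% of all genes, with a median of -0.11 over the members and -0.014 over all genes. Both MYC-UPF1 libraries lay below both MYC libraries in 14 members, beside 11.8% of all genes, and above them in 1, H4C4, beside 8.88% of all genes. All of the 12 most abundant members, with both copies of H2AC18 and H2AC19 and of H4C14 and H4C15 counted, had a log2 change below 0. The median of these 12 was -0.14, and 0 of them passed the unadjusted threshold. Without MYC replicate 2 their median was -0.048, with 9 of 12 below 0, and without MYC replicate 1 it was -0.24.

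These counts also moved with single libraries. Without MYC replicate 1 there were 5 members lower, beside 4.97% of all genes, and 0 higher, and without MYC-UPF1 replicate 2 there were 6 lower, beside 0.928%, and 0 higher. Without MYC replicate 2 there were 3 lower, beside 0.611% of all genes, and 2 higher, beside 1.05%, and the median was -0.029. Without MYC-UPF1 replicate 1 there were 2 lower, beside 2.24%, and 1 higher, beside 1.31%. GC content ran the other way from depletion, with a Spearman rho of -0.44 between log2 change and GC content across 12599 genes. With that trend removed the members' median was -0.081, beside -0.0038 over all genes.

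H2AC17, an H2A gene, gave the smallest p of this comparison. Its FPKM was 2.13 and 1.95 in MYC and 1.15 and 0.929 in MYC-UPF1, with the MYC-UPF1 libraries the lowest of all 8. It fell by 0.58 (SE 0.116, limma adjusted p = 0.638) and passed the unadjusted threshold in every alternative run. H2BC4 was at 3.43 and 3.56 FPKM in MYC and at 2.51 and 2.58 FPKM in MYC-UPF1. It fell by 0.34 (SE 0.119, limma adjusted p = 1), and missed the threshold when any single library was left out, with the replicate number as a block and with all 8 libraries in a single fit.

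H3C3 was at 3.08 and 3.16 FPKM in MYC and at 1.62 and 2.77 FPKM in MYC-UPF1. It fell by 0.39 (SE 0.168, limma adjusted p = 1), and rested on MYC-UPF1 replicate 1, without which the log2 change was -0.13. The call of H3C3 was also lost without MYC replicate 1 or without replicate 2, with no FPKM minimum, with the GC trend removed and with all 8 libraries in a single fit. The most abundant members missed the unadjusted threshold. H2BC12 was at 193 and 210 FPKM in MYC and at 190 and 183 FPKM in MYC-UPF1 (log2 change -0.11, limma adjusted p = 1), and H1-2 at 89.4 and 98.9 FPKM in MYC and at 91.4 and 83.8 FPKM in MYC-UPF1 (log2 change -0.10, limma adjusted p = 1).

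The comparisons of reduced and raised UPF1 share no libraries, so the groups that lay apart in each could be set side by side. In both, 38 members and 13105 genes were tested. Of the 14 members whose siUPF1 libraries both lay below siControl and the 14 whose MYC-UPF1 libraries both lay below MYC, 6 were the same, H2BC12, H2BC5, H2AC18, H2AC19, H2BC11 and H2BC6. These 6 were 15.8% of the 38, beside 1.65% of all genes, and they include the copies H2AC18 and H2AC19, which are 1 measurement. Both counts of 14 were already above their shares over all genes, 18.5% and 11.8%, which by itself raises the share in both. Whether the same members tend to be lower in both comparisons was not tested. The pair of copies H4C14 and H4C15 lay above in siUPF1 and below in MYC-UPF1, and H4C4 did the reverse. These 3 were 7.89% of the members, beside 7.59% of all genes, so the share in opposite directions is at the background. The difference of both log2 changes was tested in limma over all 8 libraries for 42 members. At an unadjusted p of 0.05, 3 members passed, where 15.2% of all 13412 genes passed, and limma called 0 members after adjustment, beside 0.0224% of all genes. These 3 were H2AC17, H4C14 and H4C4, and for H2BC12 the difference of -0.36 had a limma adjusted p of 0.438.

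The genes that make, process and degrade histone mRNA were examined as lists. SLBP was at 41.7 and 43.3 FPKM in siControl and at 38.9 and 35.02 FPKM in siUPF1, a log2 change of -0.20 (limma adjusted p = 0.285), and had a log2 change of 0.033 after overexpression. In limma 21.5% of all genes and 0 of the 12 tested genes of histone mRNA 3′ processing, SLBP among them, passed an unadjusted p of 0.05 after depletion. SLBP did pass it with the GC trend removed (log2 change -0.21), with median centring (-0.24), with quantile normalization (-0.23), with all 8 libraries in a single fit and without siUPF1 replicate 1 (-0.27), but with a log2 change of -0.12 without siUPF1 replicate 2 it did not. Among 6 genes of histone gene transcription, 1 was higher, a share near the 16% of all genes, and 0 were lower, beside 5.51%. This was HINFP, a factor that activates H4 genes, with a log2 change of 0.29 and a call that was lost with the GC trend removed. NPAT, the coactivator of histone gene clusters, had a log2 change of -0.20 (limma adjusted p = 0.353).

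Among 17 genes of histone mRNA decay, 2 were higher and 1 lower after depletion, shares near the 16% and 5.51% of all genes. The higher ones were LSM4, a subunit of the LSM ring that binds RNA 3′ ends, at 0.30, and LSM7, another subunit of it, at 0.26. With the GC trend removed these log2 changes were 0.12 and 0.14. XRN1, the exonuclease that degrades RNA from the 5′ end, fell by 0.23, at 2.08 and 2.13 FPKM in siControl and 1.71 and 1.57 FPKM in siUPF1. All 3 calls were lost with the GC trend removed. Among 13 histone chaperones, 2 were higher and 1 lower at the unadjusted p, beside 16% and 5.51% of all genes. HIRA, which deposits H3.3 outside S phase, rose by 0.39 (limma adjusted p = 0.108). ASF1B rose by 0.36 (limma adjusted p = 0.215), while its paralogue ASF1A fell by 0.52 (limma adjusted p = 0.142). ASF1A was at 25.8 and 26.03 FPKM in siControl and at 21.1 and 14.9 FPKM in siUPF1, and ASF1B at 23.4 and 25.7 and then at 36.5 and 27.4 FPKM. With the GC trend removed the log2 change of HIRA was 0.23 and that of ASF1B 0.21, and the call of ASF1B was lost while those of HIRA and ASF1A remained.

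The replacement histones, most of which are made outside S phase from polyadenylated mRNAs, were also examined. H2AX, in this list, also held the stem-loop pattern after its stop codon. Of 11 tested, 3 were higher after depletion, beside 16% of all genes, and 0 lower, with a median log2 change of -0.0091. They were MACROH2A2 at 0.25, H2AX at 0.27 and H1-10 at 0.29. With the GC trend removed, the log2 changes of H2AX and H1-10 turned to -0.019 and -0.012, that of MACROH2A2 was 0.15, and all 3 calls were lost. H2AX was at 71.5 and 69.4 FPKM in siControl and at 79.4 and 90.8 FPKM in siUPF1.

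The last list was of genes of S phase, when replication-dependent histone mRNA is made. Of 18 tested, 3 were higher after depletion, a share near the 16% of all genes, and 2 were lower, beside 5.51% of all genes. The median log2 change was 0.068, beside 0.057 over all genes. UHRF1, which maintains DNA methylation at replication forks, rose by 0.43, CCNE1, the cyclin of S phase entry, by 0.32 and MCM5, a subunit of the replicative helicase, by 0.27. RRM2, which makes deoxynucleotides, fell by 0.33 and CCNA2, the cyclin of S phase and G2, by 0.29. With the GC trend removed the log2 change of UHRF1 was 0.27 and that of MCM5 0.11, and of the 5 calls that of MCM5 was lost. The smallest limma adjusted p in this list was 0.0876, for UHRF1. After overexpression 0 genes of these lists passed the unadjusted limma p in either direction, beside 1.43% of all genes. After adjustment limma called 0, beside 0.00755% of all genes. With so few calls over all genes, a count of 0 is near the background. UPF1, the targeted gene, was left out of the list of histone mRNA decay and of all these counts.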

How the data were processed

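The authors trimmed reads with Trimmomatic 0.38, aligned them to hg19 with HISAT2 2.1.0, assembled transcripts with StringTie 1.3.4d against NCBI annotation and deposited FPKM per gene and library. Tool versions are those of the submitters' processing notes. The series tables and single-library files held the same FPKM, with 0 differences, and no value was 0. Here limma 3.58.1 under R 4.3.3 (lmFit, eBayes with a mean-variance trend) was run on log2(FPKM + 1) over all genes with a mean of at least 0.5 FPKM over the 4 libraries, each treated group against its own control, and once over all 8 libraries for the difference of both changes. Calls were made at an unadjusted p of 0.05, the threshold the study names, and at a Benjamini-Hochberg adjusted p of 0.05. The members, gene lists, tests and alternatives were chosen with earlier results of these data known. Members named are the 12 most abundant, those past the unadjusted p, and the 3 largest rises and falls with groups apart. Other members, and the polyadenylation signal, were picked out after values were seen. Stem-loops and transcript models came from GENCODE release 44 on GRCh37, with 2 members matched by older symbols. On simulated libraries, 86% of genes given a log2 change of 0.4 passed the unadjusted p for depletion (13535 genes) and 84.5% for overexpression (13251 genes), with 0% past the adjusted p. At a log2 change of 1, 61.5% passed the adjusted p in each. The simulated noise was drawn separately for each gene, and 5.56% and 5.43% of unchanged genes passed at 0.4. In the overexpression libraries 1.43% of all genes passed, so the simulated shares need not hold for the data. Alternatives were other pseudocounts, FPKM minimums, scalings, GC and length correction, a replicate block, eBayes without the trend and each library left out. Python 3.11.15, pandas 2.3.3 and matplotlib 3.10.9 were used. H2BC7 and H2BC8 have no gene model here and their sequences were not analysed.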

Additional observations from a re-analysis of the deposited data

Results flagged for a closer look

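The difference between the responses to UPF1 depletion and overexpression passed an unadjusted limma p of 0.05 in 3 of 42 histone genes, or 7.14%. In the same fit over all 8 libraries 15.2% of all genes passed, so the share of histone genes lies below the background. After adjustment limma called 0 histone genes. For H2AC17 the depletion change exceeded the overexpression change by 0.65 (value 0.645, SE 0.166, limma adjusted p = 0.179). This gene was at 2.29 and 1.81 FPKM in siControl and 2.01 and 2.38 FPKM in siUPF1, beside the fall in MYC-UPF1. For H4C14 the difference was 0.46 (value 0.4636, SE 0.205, limma adjusted p = 0.323), while its identical copy H4C15, at 0.44, missed the threshold (limma adjusted p = 0.348). For H4C4 the difference was -0.35 (value -0.3483, SE 0.143, limma adjusted p = 0.296). H4C4 was at 0.867 and 1.16 FPKM in siControl, 0.755 and 0.679 in siUPF1, 0.528 and 0.590 in MYC and 0.730 and 0.658 in MYC-UPF1, and neither of its single comparisons passed the threshold.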

How the results depend on the processing

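Depth is unknown, so low FPKM values carry an unstated counting error. The counts of histone genes called after depletion were 2 higher and 7 lower, beside 16% and 5.51% of all genes. The higher count became 1 with a minimum of 1 FPKM (16.5% of all genes) and with quantile normalization (10.5%). It was also 1 after correction for GC content and length (11.1%) and with all 8 libraries in a single fit (16.4%). The lower count became 4 with no FPKM minimum (4.25% of all genes) and 11 with median centring (9.39%), so the shares over all genes moved as well. Leaving out a library gave 2 to 5 higher, 5 to 17 lower and a median log2 change of -0.22 to 0.037. The median was -0.21 with the GC trend removed, beside -0.0014 over all genes. After overexpression, 0 higher became 1 with no minimum, and 3 lower became 1 with all 8 libraries; leaving out a library gave 0 to 2 higher and 2 to 6 lower. Replicate numbers share only a number: same-numbered libraries deviated from their group means at a correlation of -0.129 over 13535 genes and -0.569 over 13251 genes. With the replicate block, depletion gave 3 higher, beside 14.6% of all genes, and 7 lower, beside 4.48%. Overexpression gave 0 and 4 with this block, and the difference test 2 in place of 3. With crossed numbers, added after the data were seen, depletion gave 5 higher, beside 16.2% of all genes, and 8 lower, beside 6.74%. Overexpression gave 1 and 12 with crossed numbers. For overexpression with either block the shares over all genes are not given here, so these counts have no background. Directions turned for H2AC6 after depletion (main value 0.010), at -0.025 with quantile normalization, -0.029 with median centring, -0.12 with the GC trend removed and -0.025 to 0.045 when a library was left out. Leaving out a library turned the direction of 21 of 45 members after depletion and 15 of 38 after overexpression. The share of all genes that turned was not computed, so whether histone genes turn more often than others is unknown. The 9 and the 3 called members could not turn, because in each of them the treated libraries both lay beyond both controls. Among the members named by rule, those that turned included H2BC9 after depletion (-0.40 to 0.092) and, after overexpression, H2AC20 (-0.33 to 0.0080), H2AC6 (-0.28 to 0.055) and H2BC21 (-0.18 to 0.097). Each of these had missed the unadjusted limma threshold in that comparison.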
